A study of Mus musculus with 8 samples.

Results

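Spermatids transcribe many of their messenger RNAs (mRNAs) days before the proteins are made, and keep them bound to proteins in the meantime. This section is about 9 genes whose products store such mRNAs, repress or promote their translation, or set their processing and stability: Ybx1, Ybx2, Pabpc1, Paip2, Dazl, Boll, Pum2, Elavl1 and Ptbp2. The members are all probe sets that the platform annotation gives to exactly 1 of these genes, under its current or an earlier symbol. No measured value entered that choice of probe sets, but the genes were chosen with earlier results of these data known. There were 25 such probe sets of 45037 tested, for 9 of 18193 genes, and Ybx2 and Paip2 had 1 probe set each.

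The arrays hold RNA of round spermatids, the haploid germ cells that follow meiosis, from adult 129 Sv/Ev mice of 2 to 4 months. The 4 mutant arrays came from mice with the BrdtΔBD1 allele, which lacks the first bromodomain of Brdt, a testis-specific protein that binds acetylated histones. The 4 control arrays came from mice labelled only as control, with no genotype stated. Each array was made from the cells of 7 animals pooled together, separated on an albumin gradient, with purity checked by propidium iodide but no value given. The comparison asks which of these transcripts differ in round spermatids when that bromodomain is missing.

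Y-box proteins such as YBX1 and YBX2 (also called MSY2) coat mRNAs in spermatids, and the loss of YBX2 is known to deplete stored messages and cause male sterility. The poly(A)-binding protein PABPC1 joins the tail of an mRNA to the initiation machinery, and PAIP2 holds it back. DAZL and BOLL are RNA-binding proteins of the DAZ family: DAZL is needed for germ cells to form and enter meiosis, and male mice without BOLL complete meiosis but stop at the round spermatid stage. PUM2 is a Pumilio repressor, ELAVL1 (HuR) stabilises mRNAs with U-rich elements, and PTBP2 is a splicing repressor of the germ line that also stabilises the Pgk2 message.

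Promoter sequences are shown for the member with the largest difference (Dazl), for the member whose promoter holds the long form of the Y-box (Boll), and for a Y-box gene itself (Ybx2). Each is the 250 bases before a transcription start, from RefSeq on GRCm38.p6, written along the gene's strand. Capitals mark ATTGG or its reverse complement CCAAT, the core of the Y-box that gave the Y-box proteins their name. The Dazl sequence is chr17:50293621-50293870 (minus strand), the Boll sequence chr1:55362729-55362978 (minus strand), and the Ybx2 sequence chr11:69935649-69935898 (plus strand).
Dazl: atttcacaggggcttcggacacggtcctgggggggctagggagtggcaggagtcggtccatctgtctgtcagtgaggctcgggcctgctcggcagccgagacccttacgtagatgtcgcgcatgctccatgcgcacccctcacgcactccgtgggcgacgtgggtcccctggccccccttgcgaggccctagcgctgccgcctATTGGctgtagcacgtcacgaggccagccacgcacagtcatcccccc
Boll: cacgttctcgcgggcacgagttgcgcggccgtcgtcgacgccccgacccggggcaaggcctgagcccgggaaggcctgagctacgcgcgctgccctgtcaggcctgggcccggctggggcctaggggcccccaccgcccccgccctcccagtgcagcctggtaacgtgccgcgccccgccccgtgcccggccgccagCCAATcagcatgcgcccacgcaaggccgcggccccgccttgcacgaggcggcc
Ybx2: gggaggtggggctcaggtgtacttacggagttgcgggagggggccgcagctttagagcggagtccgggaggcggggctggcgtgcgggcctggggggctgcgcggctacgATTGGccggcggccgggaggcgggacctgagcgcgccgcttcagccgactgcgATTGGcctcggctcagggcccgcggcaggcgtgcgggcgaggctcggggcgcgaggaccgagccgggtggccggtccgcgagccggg

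The table of promoters held 11 sequences for 7 of the 9 members, which does not include Pabpc1 and Paip2. ATTGG was found on either strand in at least 1 promoter of 5 members, Ybx1, Ybx2, Dazl, Boll and Elavl1, in 5 of the 11 sequences. Of all 32851 promoters in the table, 33.8% held it in the same 250 bases. The longer form CTGATTGG, which contains ATTGG, was in the Boll promoter shown and in 3.83% of all promoters. Counted from the transcription start, with -1 as the base before it, the match begins at -47 in Dazl, at -53 in Boll and at -140 and -87 in Ybx2. These matches describe the letters and are not binding data.

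Across the 25 probe sets, 19 had a higher mean in mutant arrays and 6 a lower one. Of the 25, 15 averaged at least 4, as did 14359 of all 45037. The shares of all probe sets below therefore include more dim ones. Pum2 1418016_at and 1418017_at are among the 15 only through the mutant arrays. The median log2 difference, mutant minus control, was 0.34, beside -0.03 over all probe sets. In limma with group as the only term and Benjamini-Hochberg adjustment over all probe sets, 0 of the 25 rose and 0 fell at the threshold of 0.05, where 0.717% of all probe sets rose and 0.702% fell. The lowest adjusted p of a member was 0.093. At an unadjusted p under 0.05, 10 were higher and 0 lower, beside 8.43% and 6.69% of all probe sets. For 7 of the 25 every mutant array was above every control array, as for 4.73% of all probe sets, and for 0 every mutant array was below, as for 4.75%.

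The arrays fall into 4 pairs by replicate number, 1 mutant and 1 control array each, that deviated together from their group means. With the replicate number as a block in limma, 6 of the 25 probe sets rose and 0 fell, where 3.92% of all probe sets rose and 2.5% fell. They belong to 4 genes: both Dazl probe sets, 1 of Boll, 2 of Pum2 and 1 of Elavl1. The mutant array was higher in all 4 pairs for 11 of the 25, beside 14.3% of all probe sets, and lower in all 4 for 1, that of Ybx2, beside 15.7%. With 1 pair left out, 4 member probe sets rose without pair 1, 2 without pair 2, 0 without pair 3 and 5 without pair 4, where 2.03%, 4.09%, 0.231% and 1.27% of all probe sets rose. Few probe sets of any kind passed without pair 3, so the 0 there says little about the members.

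**Figure D1:**
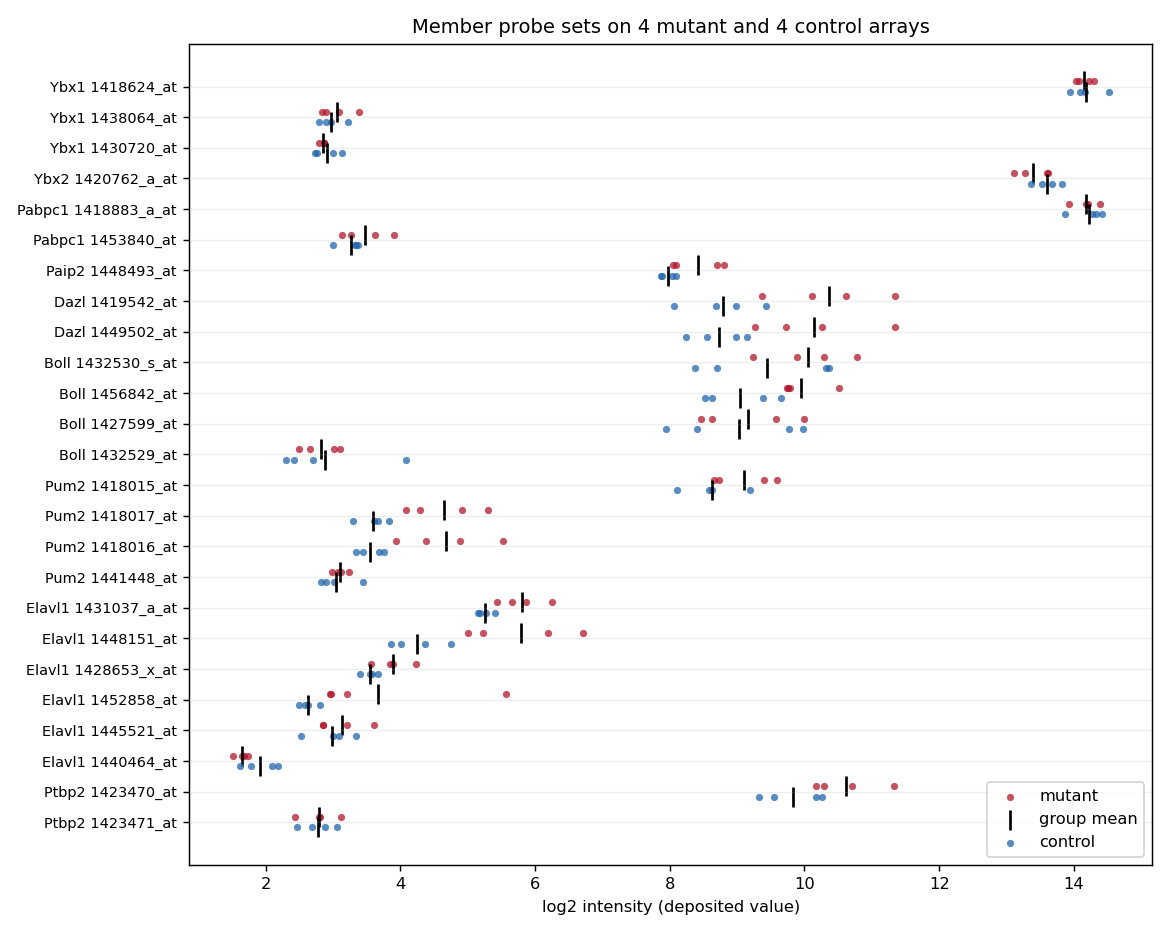
Deposited log2 intensity of the 25 member probe sets on each array, 1 point per array (4 mutant in red, 4 control in blue), with black bars for the group means. The points of Ybx1, Ybx2 and Pabpc1 at the right overlap between the groups, while those of Dazl 1449502_at and Elavl1 1448151_at do not; probe sets differ in probe response, so levels are not compared between them.

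Taken at the level of genes, each by its brightest probe set, 0 of 9 rose and 0 fell (1.86% and 1.85% of all genes did), with a median log2 difference of 0.47 beside -0.02 over all genes. With the block 1 rose, Dazl, and 0 fell, beside 6.6% and 4.94% of all genes.

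As to the state of the arrays, Brdt itself, read by its brightest probe set, lay between 10.3 and 11.1 on mutant and between 11.7 and 12.2 on control arrays, a 2.66-fold lower mean in the mutant (adjusted p = 0.012 over probe sets, limma). Since no probe positions were used here, this reading is not a check of the deletion. The Gapdh signal at the 3' end exceeded that at the 5' end, a gap that grows as RNA breaks down, by 1.68 and 2.05 (log2) on control arrays 1 and 3 and by 0.33 to 0.94 on the others. The 18S ribosomal RNA signal was 11.2 and 8.87 on control arrays 1 and 3 and 8.11 on mutant array 1, against 3.65 to 5.51 on the remaining arrays. Of 18 round spermatid markers 1 rose and 0 fell, and their mean ran from 12.9 to 13.2 on mutant and from 12.8 to 13.1 on control arrays. Of 23 measured Sertoli cell markers 21 had a higher mean in the mutant, and 6 rose (14 with the block) and 0 fell. The 6 were Vim, Cldn11, Aard, Defb19, Cst12 and Fabp5, with log2 differences of 1.72 (Cldn11) to 4.01 (Fabp5). The mean of all 23 markers was 5.89 to 7.43 on mutant and 5.04 to 5.81 on control arrays. The log2 of their summed intensity was 12.8 to 14.7 and 11.2 to 12.6. Among the genes that define the cell type, Wt1 was at 5.10 in mutant and 3.95 in control arrays (adjusted p = 0.090 over genes, and 0.043 with the block), Gata4 at 3.96 and 3.56, Sox9 at 3.80 and 3.80, Fshr at 2.51 and 2.41 and Amh at 1.95 and 1.97, the last near the bottom of the intensity range. The part of Sertoli cell RNA in the differences below was not tested. Since whole preparations were measured, a change in the number of cells of a type and a change in RNA per cell cannot be told apart.

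The Y-box genes did not differ beyond the spread between arrays. Ybx1, which packages mRNA in most cell types, read 14.22, 14.30, 14.03 and 14.07 in the mutant against 14.51, 14.17, 13.94 and 14.09 in the control (probe set 1418624_at; log2 intensities here and below follow replicates 1 to 4). Its log2 difference was -0.02 (95% interval -0.34 to 0.29, adjusted p = 0.96, limma). The mutant values lie inside the control range. Control array 1 is the highest of the 8, and without it the difference was 0.09. The other Ybx1 probe sets, 1438064_at and 1430720_at, had means near 3 and differences of 0.08 and -0.06.

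Ybx2, the germ cell form, read 13.11, 13.61, 13.28 and 13.60 on mutant arrays and 13.52, 13.68, 13.37 and 13.82 on control arrays. The mutant array was the lower of each of the 4 pairs, by 0.41, 0.07, 0.09 and 0.21, though the groups overlap. The log2 difference was -0.20 (95% interval -0.54 to 0.15, adjusted p = 0.62, and 0.34 with the block) and the Ybx2 transcript did not pass the test.

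Pabpc1 gave 14.18, 14.39, 13.93 and 14.20 on mutant and 14.33, 14.27, 13.86 and 14.42 on control arrays (1418883_a_at). Arrays of replicate 3 were the lowest of both groups. The log2 difference was -0.04 (95% interval -0.38 to 0.30, adjusted p = 0.93), and that of the dim probe set 1453840_at 0.22.

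Paip2, the inhibitor of PABPC1, differed more, at 8.70, 8.81, 8.10 and 8.05 on mutant and 8.03, 8.09, 7.88 and 7.88 on control arrays. Mutant arrays 1 and 2 stood above all controls and mutant arrays 3 and 4 were close to them, with the mutant higher in all 4 pairs. The difference of 0.44 (SE 0.19), or 1.36-fold, had an unadjusted p of 0.043 and an adjusted p of 0.31, or 0.11 with the block. It therefore did not pass in either fit, and without control arrays 1 and 3 it was 0.43.

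Dazl had the largest difference of the 9 genes. Probe set 1419542_at read 11.34, 10.62, 10.11 and 9.37 in the mutant against 8.69, 9.43, 8.98 and 8.07 in the control. The highest control array lies just above the lowest mutant array, and within each pair the mutant was higher, by 2.66, 1.19, 1.13 and 1.30. The mean was 10.4 ± 0.83 in mutant and 8.79 ± 0.57 in control arrays (SD, n = 4), a 2.96-fold difference (log2 1.57, SE 0.42, adjusted p = 0.12, limma). With the block the adjusted p was 0.024.

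The other Dazl probe set, 1449502_at, gave 11.35, 10.26, 9.72 and 9.26 on mutant and 9.15, 8.98, 8.55 and 8.23 on control arrays. Here the groups do not overlap. The difference was 2.67-fold (log2 1.42, SE 0.42, adjusted p = 0.15, and 0.016 with the block). The annotation cites the same source sequence for both Dazl probe sets, so they are not independent readings. A test of unequal difference between them (diffSplice, over 2870 genes) did not pass, at an adjusted p of 0.9999. Over genes, the adjusted p of Dazl was 0.080 without and 0.020 with the block, and it passed in 4 of 15 alternatives, the block, a minimum mean of 4 (0.0499), a prior with trend and robust variance (0.037) and the omission of mutant array 4 (0.044). Without control arrays 1 and 3 the difference was as large, at 1.61, with an adjusted p of 0.31. With the block, 1419542_at missed the threshold without pair 3 (0.088) or pair 4 (0.078), and 1449502_at without pair 3 (0.075).

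Dazl is also transcribed in spermatogonia and spermatocytes, and markers of these cells were read beside it. Of 18 measured spermatogonia markers 17 had a higher mean in the mutant, and 1 rose (5 with the block) and 0 fell. Their mean was 5.48, 4.77, 5.01 and 4.76 on mutant and 4.43, 4.09, 4.55 and 4.30 on control arrays, and the log2 of their summed intensity 10.2 to 11.3 and 9.13 to 9.92. Mutant array 1 was the highest in Dazl and in this list. Its 18S signal of 8.11 was the highest of the mutant arrays and below those of control arrays 1 and 3 (11.2 and 8.87). Without mutant array 1 the Dazl difference on 1419542_at was 1.24 (adjusted p = 0.21) and on 1449502_at 1.02 (adjusted p = 0.18). The marker that rose was Etv5, at 4.90 in mutant and 3.62 in control arrays (adjusted p = 0.042 over genes). Among other markers of undifferentiated spermatogonia, Id4 was at 8.53 and 7.43 and Gfra1 at 3.64 and 3.36. Lin28a was at 3.08 and 2.65 and Zbtb16 at 3.06 and 3.03. Id4, Gfra1, Lin28a and Zbtb16 did not pass in either fit. Uchl1 of the same list had a log2 difference of 1.57 and passed with the block only (adjusted p = 0.097 over genes, and 0.027 with the block). The log2 differences of Bcl6b, Foxo1 and Sall4 were 0.24, 0.17 and 0.16 and that of Ret was -0.11. These also passed in neither fit. For Etv5, Uchl1, Gfra1 and Lin28a every mutant array was above every control array. Stra8, which marks entry into meiosis, had means of 7.61 and 6.08 (adjusted p = 0.15, and 0.015 with the block). Dmrt1 and Rhox13 of the list had log2 differences of 1.38 and 1.05. Both passed with the block only (limma, adjusted p with the block 0.034 and 0.043).

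Of 25 spermatocyte markers 0 rose and 0 fell (limma; an unadjusted p under 0.05 was reached by 7 that were higher and 2 that were lower), and with the block 3 rose and 1 fell. Their mean was 9.34, 9.21, 8.72 and 8.49 on mutant and 8.88, 8.68, 8.56 and 8.47 on control arrays, and the log2 of their summed intensity 15.5 to 15.9 and 15.5 to 15.8. The brightest markers weigh most in that sum, such as Pttg1 with a mean of 13.0 in both groups. The 3 that rose with the block were Sycp3, Hormad1 and Spo11, with log2 differences of 0.99, 1.09 and 0.89. The 1 that fell with the block was Rec8, at -0.67. The part of such cells in the Dazl difference was not tested.

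**Figure D2:**
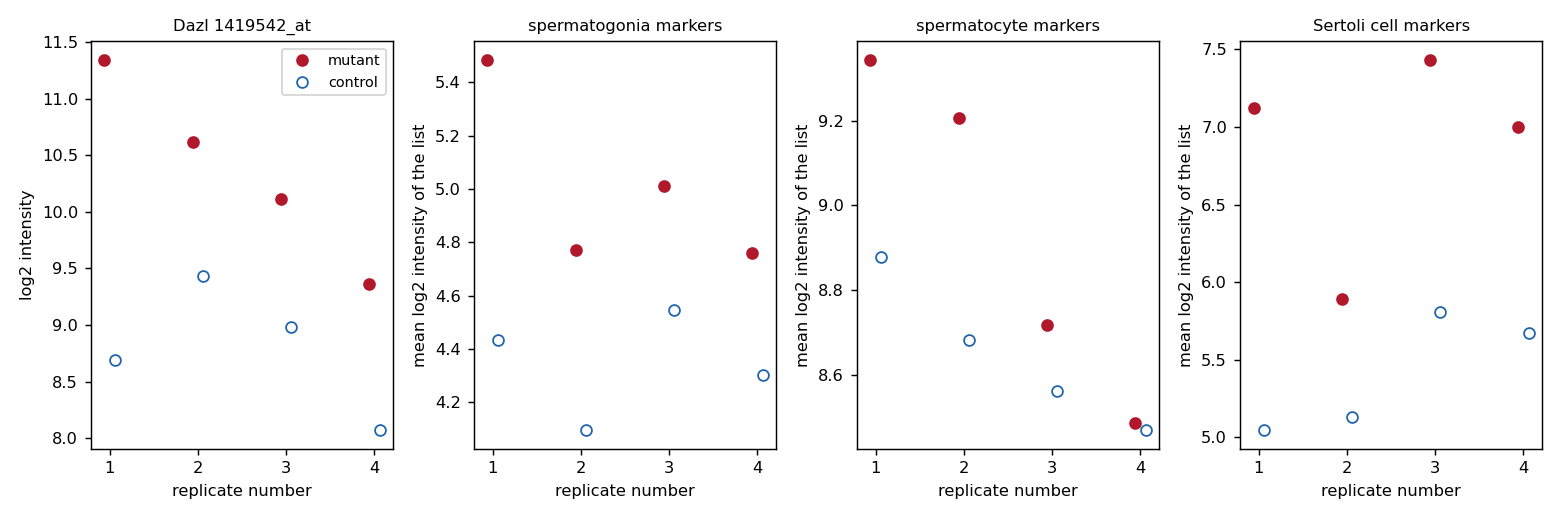
Log2 intensity of Dazl (left) and the mean log2 intensity of the spermatogonia, spermatocyte and Sertoli cell marker lists (right) by replicate number, 1 point per array, filled red for mutant and open blue for control. The mutant point is the higher of each pair in all 4 panels, and the vertical scales differ and do not start at 0.

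Boll, the ancestral member of the DAZ family, gave different answers by probe set. On 1456842_at the values were 9.79, 10.51, 9.75 and 9.74 on mutant and 8.52, 9.65, 8.63 and 9.38 on control arrays. All mutant arrays are above all controls, with mutant array 2 standing clear of the other three, and the difference was 1.87-fold (log2 0.90, SE 0.29, adjusted p = 0.18, and 0.028 with the block). With the block and 1 pair left out it passed without pair 4 alone (adjusted p 0.071, 0.055 and 0.14 without pairs 1, 2 and 3).

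On 1432530_s_at, whose suffix marks probes shared by several transcripts, Boll read 9.90, 10.78, 9.24 and 10.29 on mutant and 8.71, 10.36, 8.38 and 10.32 on control arrays. Control arrays 1 and 3 were low and control arrays 2 and 4 as high as the mutants. The difference was 0.61 (SE 0.52, adjusted p = 0.65). On 1427599_at it was 0.13 (SE 0.52, adjusted p = 0.94), with 7.94 and 8.41 on control arrays 1 and 3 against 9.77 and 9.99 on control arrays 2 and 4.

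Control arrays 1 and 3 are those with the large gap between the ends of Gapdh. Without them the differences of 1432530_s_at and 1427599_at turned to -0.29 and -0.72 and that of 1456842_at was 0.43 (adjusted p = 0.56). That fit keeps mutant arrays 1 and 3 and so breaks the pairs. These mutant arrays were also low on 1432530_s_at and 1427599_at. On 1456842_at they read 9.79 and 9.75, close to mutant array 4 at 9.74. Within pairs 1 to 4 the mutant minus control difference was 1.19, 0.41, 0.86 and -0.03 on 1432530_s_at, 0.68, 0.22, 0.05 and -0.41 on 1427599_at and 1.27, 0.85, 1.12 and 0.37 on 1456842_at. Pair 4 alone was lower in the mutant, on the first 2 of these probe sets. The part of RNA quality in the Boll values was not tested. The fourth probe set, 1432529_at, had a mean under 3 in both groups. The 3 brighter probe sets did not pass the test of unequal difference (adjusted p = 0.9999, and 0.33 with the block).

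**Figure D3:**
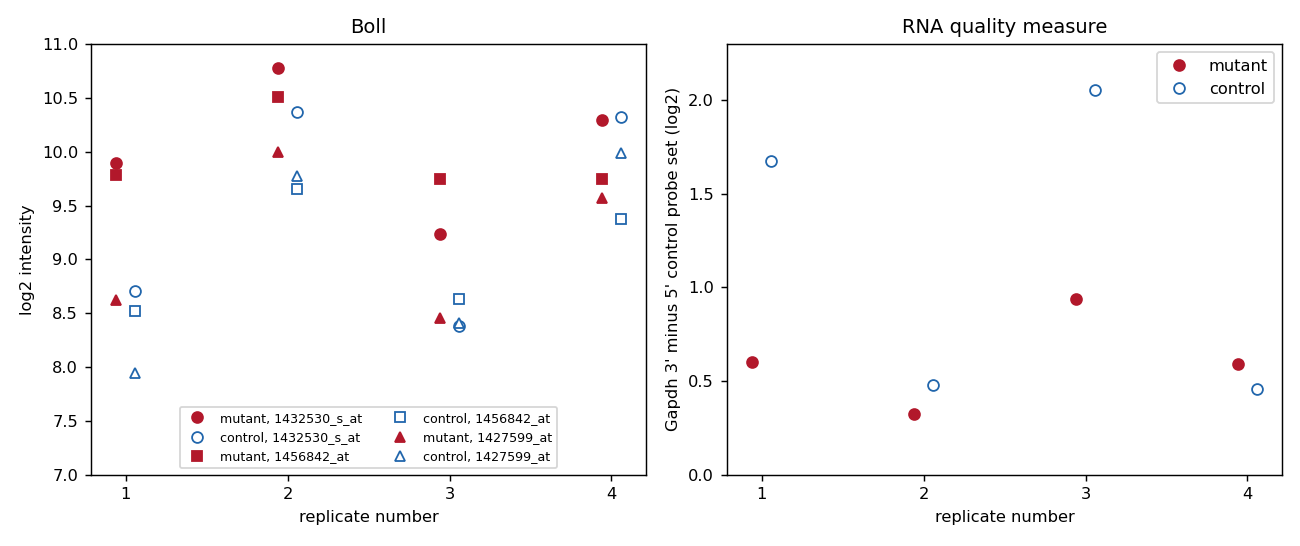
Left, log2 intensity of 3 Boll probe sets by replicate number, filled red for mutant and open blue for control arrays, with 1 marker shape per probe set. Right, how far Gapdh at the 3' end exceeds Gapdh at the 5' end on the same arrays (log2). Control arrays 1 and 3, at 1.68 and 2.05 on the right, are the low control arrays on the left; the scale of the left panel does not start at 0.

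Pum2, a repressor that binds UGUA-containing elements in 3' untranslated regions, was read by 4 probe sets. The brightest, 1418015_at, gave 9.59, 8.66, 9.40 and 8.74 on mutant and 9.19, 8.58, 8.63 and 8.12 on control arrays. The groups overlap, although the mutant was higher in all 4 pairs, and the difference was 1.38-fold (log2 0.47, SE 0.28, adjusted p = 0.49, and 0.10 with the block).

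Larger differences appeared on the dimmer Pum2 probe sets. 1418016_at read 5.53, 4.88, 4.38 and 3.93 on mutant and 3.75, 3.68, 3.34 and 3.44 on control arrays, a 2.18-fold difference (adjusted p = 0.12, and 0.028 with the block). 1418017_at read 4.91, 5.30, 4.29 and 4.09 against 3.61, 3.67, 3.30 and 3.84, or 2.07-fold (adjusted p = 0.096, and 0.043 with the block). All mutant arrays lie above all controls on both. The annotation cites 1 source sequence for these and for 1418015_at, so they are not independent readings. With the block and 1 pair left out, 1418016_at passed without pair 1 or pair 4 and 1418017_at without pair 4 alone (highest adjusted p 0.12 and 0.16, both without pair 3). The last probe set, 1441448_at, had a difference of 0.05. The unequal differences of the 3 brighter ones did not pass (diffSplice, adjusted p = 0.9999, and 0.42 with the block). Of these, 1418016_at and 1418017_at reached the minimum mean of 4 only through the mutant arrays, with control means of 3.55 and 3.60.

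Elavl1 was read by 6 probe sets. On 1448151_at it read 6.19, 6.71, 5.23 and 5.01 on mutant and 3.86, 4.75, 4.37 and 4.01 on control arrays. Every mutant array is above every control array, and mutant arrays 1 and 2 are the highest. The mean was 5.79 ± 0.80 against 4.25 ± 0.40 (SD, n = 4), a 2.90-fold difference (log2 1.53, SE 0.38) with the lowest adjusted p among the members, 0.093 in limma, and 0.024 with the block. It passed when probe sets averaging under 4 were dropped from the fit, and without control arrays 1 and 3 it was 1.40. With the block and 1 pair left out it passed without pair 1 alone (adjusted p 0.049 to 0.069).

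The other well-read Elavl1 probe set, 1431037_a_at, moved less, at 5.66, 6.26, 5.87 and 5.43 on mutant and 5.15, 5.27, 5.41 and 5.19 on control arrays. The groups again do not overlap, with a 1.47-fold difference (log2 0.55, SE 0.17, adjusted p = 0.17, and 0.069 with the block). The gap of 1431037_a_at over 1448151_at was 0.02 ± 0.60 in mutant and 1.003 ± 0.34 in control arrays (log2, SD, n = 4). This inequality had an unadjusted p of 0.048 and an adjusted p of 0.48 (diffSplice, 0.14 with the block). Of all 2870 genes in that test, 0.906% passed, 5.89% with the block, and 0 of the 4 members that could be tested, Boll, Dazl, Elavl1 and Pum2, passed in either fit. At an unadjusted p under 0.05 there was 1, Elavl1.

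Among the dim Elavl1 probe sets, 1452858_at read 3.20, 5.57, 2.97 and 2.96 on mutant and 2.63, 2.81, 2.49 and 2.58 on control arrays. Most of its 2.06-fold difference rests on mutant array 2, without which the log2 difference was 0.41 in place of 1.04. The differences of 1428653_x_at, 1445521_at and 1440464_at were 0.34, 0.14 and -0.27, with adjusted p of 0.32, 0.83 and 0.42.

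Ptbp2 gave 10.70, 11.33, 10.17 and 10.29 on mutant and 9.55, 10.16, 9.32 and 10.27 on control arrays (1423470_at). The mutant was higher in all 4 pairs, by 1.15, 1.16, 0.84 and 0.03, and the groups overlap. The difference was 1.73-fold (log2 0.79, SE 0.30, adjusted p = 0.25, and 0.072 with the block), and with the block it passed once pair 4 was left out (adjusted p = 0.035). Without control arrays 1 and 3, the lowest of the controls here as for Boll, it was 0.41. The probe set 1423471_at, with a mean under 3, had a difference of 0.01.

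**Figure D4:**
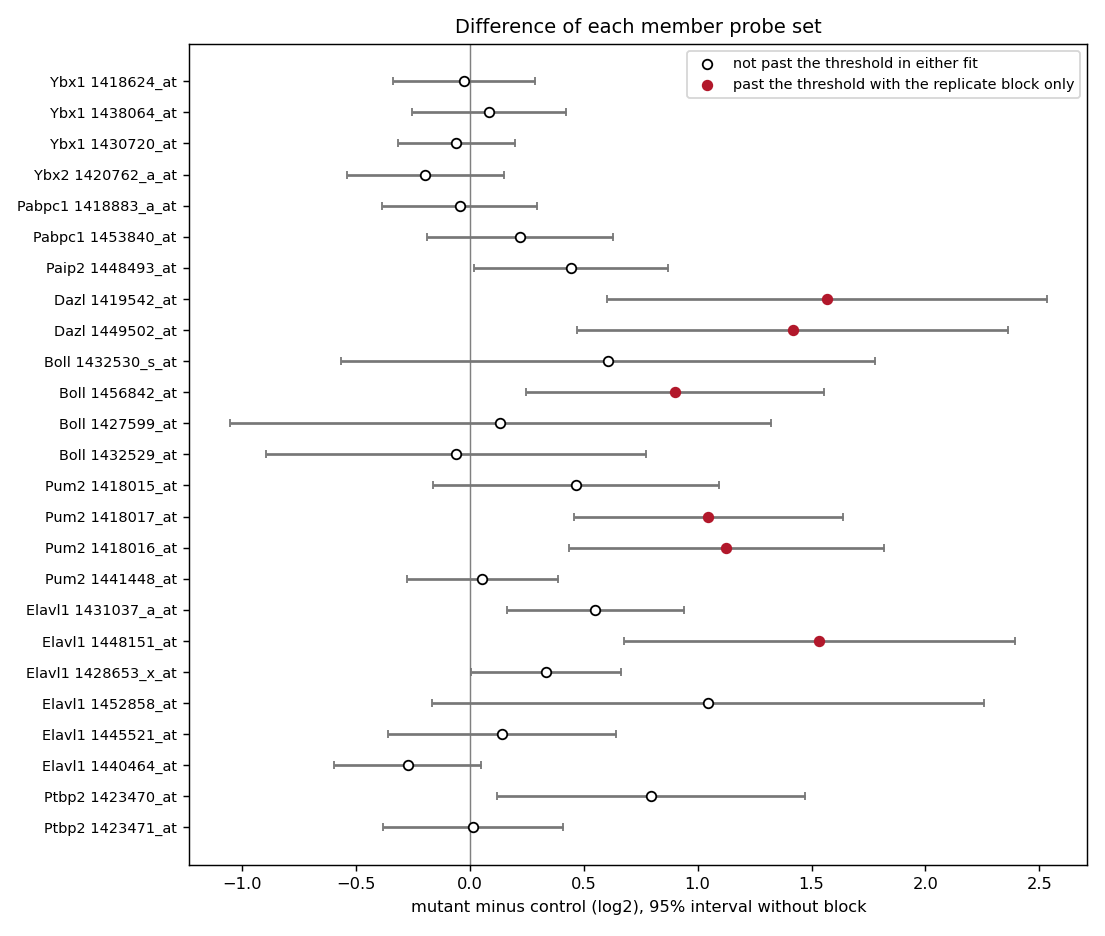
Difference in log2 intensity, mutant minus control, for the 25 member probe sets, with 95% intervals from limma without the block. Filled red points mark the 6 probe sets that passed the threshold with the replicate block, open points those that passed in neither fit; none passed without the block.

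Genes with related roles were read as a list of 59 RNA-binding and translation genes, of which 55 were measured. Of these 3 rose and 0 fell, or 5.45% risen beside 1.86% of all genes, and the median log2 difference was 0.23 beside -0.02 over all genes; 38 were higher and 17 lower. With the block 11 rose and 0 fell, or 20% risen beside 6.6% of all genes. The 3 were Prkra, Stau1 and Celf1. When probe sets averaging under 4 were dropped from the fit, the same 3 rose, and 4.62% of all genes did. Of the 55 genes, 40 had a control mean of at least 5. How far brightness accounts for the higher share of risen genes was not tested.

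Prkra, a double-stranded RNA-binding activator of the kinase PKR and partner of Dicer, read 7.16, 7.26, 7.10 and 7.08 on mutant and 5.78, 5.43, 5.61 and 5.28 on control arrays. The groups are far apart for the spread within them, with a 3.09-fold rise (adjusted p over genes = 0.00088, limma) that passed in all 15 alternatives. Its other probe set, 1447737_at, had a mean under 3 and a difference of -0.25.

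Stau1, which carries mRNAs with double-stranded stretches and triggers their decay, rose 2.34-fold, with 6.90, 6.98, 6.34 and 6.78 against 5.73, 5.47, 5.15 and 5.76 (adjusted p = 0.013; 0.11 without control arrays 1 and 3, the 1 of 15 alternatives it missed). A dimmer Stau1 probe set, 1422766_at, differed by 2.29-fold without overlap (adjusted p = 0.11 over probe sets), and 1435347_at by -0.04 on the log2 scale.

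Celf1, a regulator of splicing, translation and decay that binds GU-rich elements, rose 5.70-fold, with 8.69, 7.99, 7.75 and 6.82 on mutant and 5.82, 5.49, 5.72 and 4.18 on control arrays (adjusted p = 0.024). It rests on 1 probe set. Its log2 difference was 2.51 there and 1.19, 0.24, 0.70 and -0.18 on the other four. Of those 0 passed without the block and 1 with it, 1426408_at at 0.70 (adjusted p over probe sets = 0.045), and the mean of all its probe sets gave 0.89 (adjusted p = 0.083). Celf1 passed in 3 of the 8 fits that leave out 1 array, with adjusted p of up to 0.074, the highest without mutant array 3, and missed without each of the 4 control arrays (0.0501 to 0.053).

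With the block, Cpeb1 and Cpeb2, which control polyadenylation in the cytoplasm, rose by 0.60 and 1.19 on the log2 scale (adjusted p with the block 0.035 and 0.015). The other CPEB genes were lower, Cpeb4 with a log2 difference of -0.58 (SE 0.24, adjusted p = 0.21, and 0.12 with the block), with every mutant array below every control array, and Cpeb3 with -0.15 (SE 0.40); neither passed. Celf2, Ptbp3, Khdrbs1, Ddx6, G3bp2 and Qk also rose with the block, by 0.62 to 0.87. Several genes that rose with the block were dim. Mutant and control means were 4.02 and 3.43 for Cpeb1, 4.39 and 3.52 for Celf2 and 4.76 and 4.06 for Ptbp3. Some close relatives of the members with large signals gave small differences that did not pass: Ybx3 -0.02 (SE 0.12), Pabpc2 -0.29 (SE 0.18), Pabpc6 -0.05 (SE 0.25) and Ptbp1 0.0032 (SE 0.27). Dimmer relatives ran from Pabpc5 at -0.26 (SE 0.11) to Elavl2 at 1.32 (SE 0.82), with Paip1 at 1.07 (SE 0.47). Pabpc5, Elavl2 and Paip1 passed in neither fit. The chromatoid body helicases Ddx4 and Ddx25, at 0.16 (SE 0.13) and -0.16 (SE 0.12), did not pass.

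**Figure D5:**
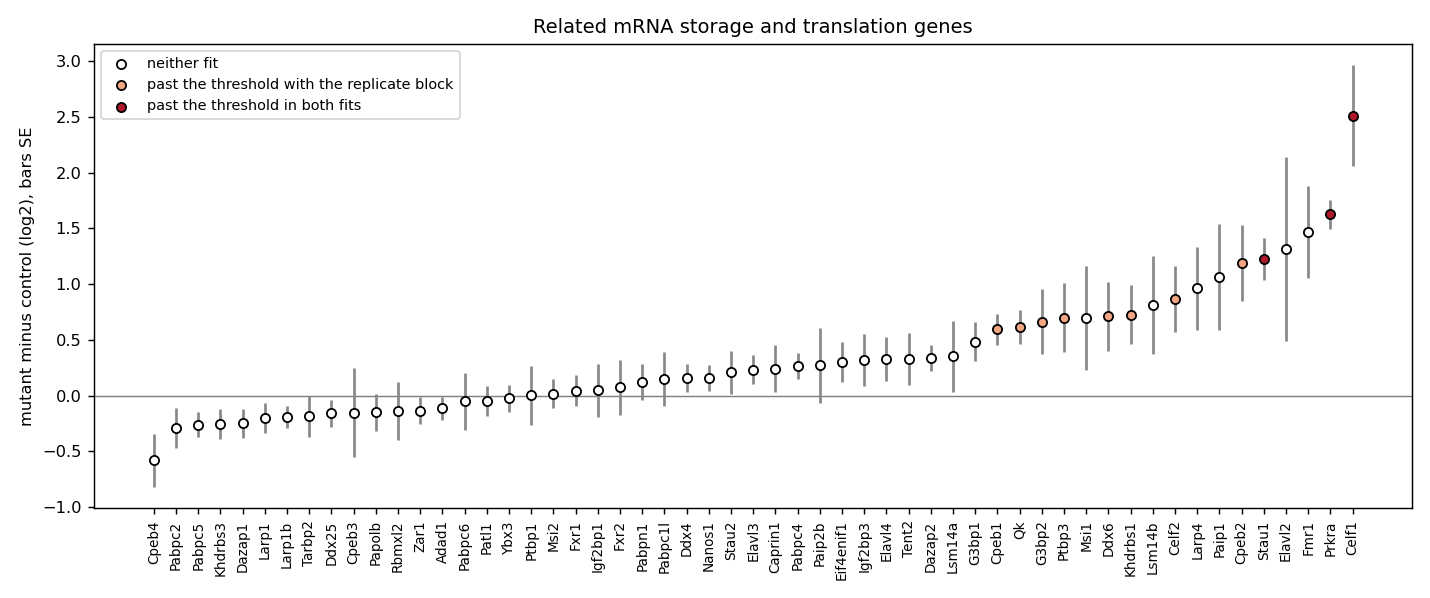
Difference in log2 intensity, mutant minus control, for 55 related genes in rising order, bars showing the standard error. Red marks the 3 that passed the threshold in both fits, orange the 8 that passed with the replicate block only, white the rest.

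A list of 16 spermatid mRNAs, drawn up as messages stored for later translation, was also read. Whether each is stored, or bound by the products of the member genes, was not tested here. Of the 16, 0 rose and 0 fell in limma, with or without the block, and 0 had an unadjusted p under 0.05. Their median log2 difference was -0.0021, with 8 higher and 8 lower. The smallest p-values were those of Prm1 (0.26, SE 0.15, adjusted p = 0.36), the acrosomal protease Acr (-0.20, SE 0.15), Tnp2 (0.16, SE 0.13), Odf2 of the outer dense fibres (-0.09, SE 0.10) and the glycolytic enzyme Gapdhs (-0.08, SE 0.15). The protamine Prm1 and the transition protein Tnp2 package sperm DNA. Pgk2, whose message PTBP2 stabilises, read 14.2 ± 0.18 in mutant and 14.2 ± 0.16 in control arrays (SD, n = 4). Whether saturation limits the differences of such strong signals was not tested. The arrays measure RNA and not its translation.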

How the data were processed

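The 8 arrays, 4 per group, were grouped and numbered by sample title. The authors deposited 1 normalized log2 intensity for each probe set and array, and the submitters' processing notes name GCRMA and limma without versions or roles. GCRMA corrects background by probe sequence, so values near the bottom of the range carry little information. The table holds 45101 probe sets, of which 64 Affymetrix controls were left out. Genes were named from the platform annotation (34945 probe sets with 1 gene, 932 with several, 9160 unnamed here), with symbols updated through a RefSeq table of GRCm38.p6 (34741 found). No build is given for the arrays. A gene is read by the brightest of its probe sets, averaged over the 8 arrays.

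Tests used limma 3.58.1 (R 4.3.3), with group as the only term, Benjamini-Hochberg adjustment over the whole table and a threshold of 0.05. Rose and fell refer to that threshold. The scripts were tested on simulated data. Unequal probe sets were tested with diffSplice over probe sets averaging 4 or more, which members higher in 1 group can pass through that group. Fold changes are powers of the log2 difference, and standard errors are those of the moderated model.

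Replicate numbers were checked for pairing over probe sets averaging 4 or more. Deviations from the group means correlated within pairs 1 to 4 with r of 0.39, 0.49, 0.65 and 0.55, all above the minimum of 0.1. Mutant and control arrays of unlike number had r of -0.45 to 0.14. Of these, mutant 1 with control 3 (0.14) and mutant 2 with control 4 (0.103) also exceeded that minimum. The pairing comes from these values, since no label says what a number marks. Blocked values are printed where they change a call or stand near it.

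The members and lists were chosen with earlier results of these data known, so counts over them are descriptions. Named genes are all members, related genes past the threshold, the 5 stored mRNAs with the smallest p, and Brdt; further related genes, Pgk2 and marker genes were named after their values were seen. No gene of similar pattern is named, as that rule needed a member past the threshold. Alternatives were the replicate block, a further quantile normalization, median centring, a filter on dim probe sets, another variance prior, the mean of a gene's probe sets, and the omission of arrays. The block with 1 pair left out was added after seeing the data. The labels do not say whether the pools of a group were separate animals throughout, so p-values measure the spread between these arrays, whose number limits the precision.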

Additional observations from a re-analysis of the deposited data

Results flagged for a closer look

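In a group of 4 arrays, 1 array was far from the other three for 4 member probe sets. On Boll 1456842_at mutant array 2 read 10.51 against 9.74 to 9.79 on the other mutant arrays. On Elavl1 1452858_at mutant array 2 read 5.57 against 2.96 to 3.20. On Ybx1 1430720_at mutant array 3 read 2.79 against 2.86 to 2.87, and on Pabpc1 1453840_at control array 4 read 2.995 against 3.33 to 3.38. In each the gap took more of the group's range than Dixon's 95% limit allows. Of 50 groups examined, chance alone would give about 2.5 such arrays.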

How the results depend on the processing

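With the replicate block the number of risen members went from 0 to 6 probe sets and from 0 to 1 gene, and that of related genes from 3 to 11; the block changed no call among the stored mRNAs or in the test of unequal probe sets. Dropping probe sets averaging under 4 gave 1 member probe set and 1 member gene, where 3.71% of all probe sets and 4.62% of all genes rose. The prior with trend and robust variance gave 1 member gene, where 2.79% of all genes rose. A further quantile normalization gave 5 related genes, where 2.32% of all genes rose. Without control arrays 1 and 3, 1 related gene passed, Prkra, where 0.0989% of all genes rose and 0.0111% of all probe sets. With 1 array left out, 0 to 0 member probe sets, 0 to 1 member genes and 2 to 6 related genes rose. The 1 member gene rose without mutant array 4, where 1.4% of all genes did. The 6 related genes rose without mutant array 2, where 4.15% of all genes did. With the block and pair 1, 2, 3 or 4 left out, 4, 2, 0 and 5 member probe sets and 7, 11, 3 and 6 related genes rose, and 0 to 2 member genes. Of all genes 3.45%, 7.71%, 0.434% and 1.97% rose in these fits. Fallen members, fallen related genes and stored mRNAs in either direction numbered 0 in all of these.

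Small differences changed sign. Without control arrays 1 and 3 they were 0.025 for Ybx1 1418624_at, -0.29, -0.72 and 0.31 for Boll 1432530_s_at, 1427599_at and 1432529_at, -0.071 for Pum2 1441448_at and -0.084 for Elavl1 1445521_at. With 1 array left out they ran from -0.10 to 0.087 for Ybx1 1418624_at, from -0.12 to 0.016 for 1430720_at, from -0.029 to 0.17 for 1438064_at, from -0.16 to 0.036 for Pabpc1 1418883_a_at, from -0.23 to 0.45 for Boll 1427599_at, from -0.25 to 0.34 for 1432529_at, from -0.020 to 0.19 for Pum2 1441448_at, from -0.020 to 0.26 for Elavl1 1445521_at and from -0.098 to 0.13 for Ptbp2 1423471_at. With the block and 1 pair left out they were 0.066 and 0.011 for Ybx1 1418624_at and 1430720_at and -0.048 for Boll 1427599_at (pair 1), -0.20 for Ptbp2 1423471_at (pair 2), 0.24 for Boll 1432529_at and -0.023 for Pum2 1441448_at (pair 3), and 0.013 for Pabpc1 1418883_a_at (pair 4). The cause of these changes was not tested.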
